A study of Rattus norvegicus with 12 samples.

Results

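A pair of neighbouring cephaloridine doses was compared in rat kidney cortex: the middle dose, 300 mg/kg, against the low dose, 150 mg/kg. The comparison rests on 6 of the 12 arrays of the study, the 3 arrays titled as middle dose and the 3 titled as low dose, each from 1 animal. All 12 arrays shared the estimate of the spread. Cephaloridine is a cephalosporin antibiotic that injures the kidney. The design text describes the study as a comparison of subtoxic and toxic doses. Male Fisher 344 rats, 7 weeks old at purchase and 8 weeks old after acclimatisation, received 1 intravenous injection of cephaloridine, and kidney cortex was taken 24 h later. The middle group received 300 mg/kg and the low group 150 mg/kg, with 3 animals each. The other groups, also of 3 animals, received saline alone (control, 0 mg/kg) or 600 mg/kg (high). No group carried a transgene or another treatment, and the labels name no pairing of animals.

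Cephaloridine is taken up from the blood into proximal tubule cells by organic anion transporters and leaves them slowly at the apical side, so it accumulates there. In these cells it is known to deplete glutathione, to promote lipid peroxidation and to impair mitochondrial respiration. Cells meeting such electrophilic or oxidative stress switch on targets of the transcription factor NRF2, which include enzymes that detoxify quinones, conjugate foreign compounds and supply NADPH. Injured tubules are further known to shed brush border proteins, to raise injury markers such as Havcr1 (kidney injury molecule 1), and to re-enter the cell cycle.

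RNA was hybridised in 1 colour (Cy3), and every value below is a log2 signal relative to the 75th percentile of its own array. On that scale 0 is the level of a bright probe, and a difference of 1 is 2-fold. The 75th percentile of the signal ran from 627 to 712 intensity units over the 12 arrays, 59.2% to 63.2% of probes were well above background, and no spot was saturated. Proximal tubule markers were bright in both groups, with all 14 measured and none called. Of 10 hepatocyte markers, Alb and Ttr were among 5 not above background in any group. The other 5 were measured, 4 with a positive difference, at a median of 0.40, and none was called. At an unadjusted p under 0.05, 2 of them were higher and 1 lower. Of 8 adrenal cortex markers, 5, with Cyp11b1 and Cyp21a1, were not above background either. The other 3 all had a positive difference, at a median of 0.23, and none was called. Whether tissue beside the cortex contributed was not tested. The arrays lay on 4 slides: low 1 with the controls on slide 1, middle 1 with low 2 on slide 2, middle 2 with low 3 on slide 3, and middle 3 with the high dose on slide 4. Slides 2 and 3 therefore each hold 1 middle and 1 low animal. Low 1 stood apart from low 2 and low 3 in the immediate early genes described below. Animals of the middle group varied more than those of the low group, with a median SD over genes of 0.11 against 0.07.

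In the fit of all 12 arrays without a block, few genes were called between the low and middle doses. Most of those were higher in the middle group, a balance that moved with the fit. Of 20747 genes tested, 40 were called higher in the middle group (0.193% of genes) and 8 lower (0.0386%), together 48 (0.231%), at a Benjamini-Hochberg adjusted p under 0.05 in limma. The differences were small: among the 48 the median size was 0.51 in log2 units, and 3 genes measured above background on all 6 arrays, Abcc2, Ugt2b7 and Apoa4, reached 2-fold, all higher. A further 2 called genes, Sbsn and Tdh, were not well above background on any of the 6 arrays, so the size of their difference is not measured. Over all genes the median difference was 0.01 and the median size 0.08. At an unadjusted p under 0.05, 2136 genes were higher and 1181 lower, 16% of those tested. In each of the 48 called genes the 3 middle animals lay wholly on one side of the 3 low animals. The calls were made on these same values, so that separation is not separate evidence. Among all genes the 3 middle values lay above the 3 low values in 12.4% and below them in 6.18%. With the slide as a block, which bases the comparison on the pairs of slides 2 and 3, 31 genes were called higher and 40 lower. All 48 kept their sign there and in each of the 2 pairs, which reuse arrays of the comparison, and 20 of them passed the test. Fitting the 6 compared arrays alone left no gene called (2083 at an unadjusted p under 0.05), and leaving out 1 animal gave 11 to 69 genes called higher and 1 to 56 lower, with 56 lower without low 1.

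**Figure D1:**
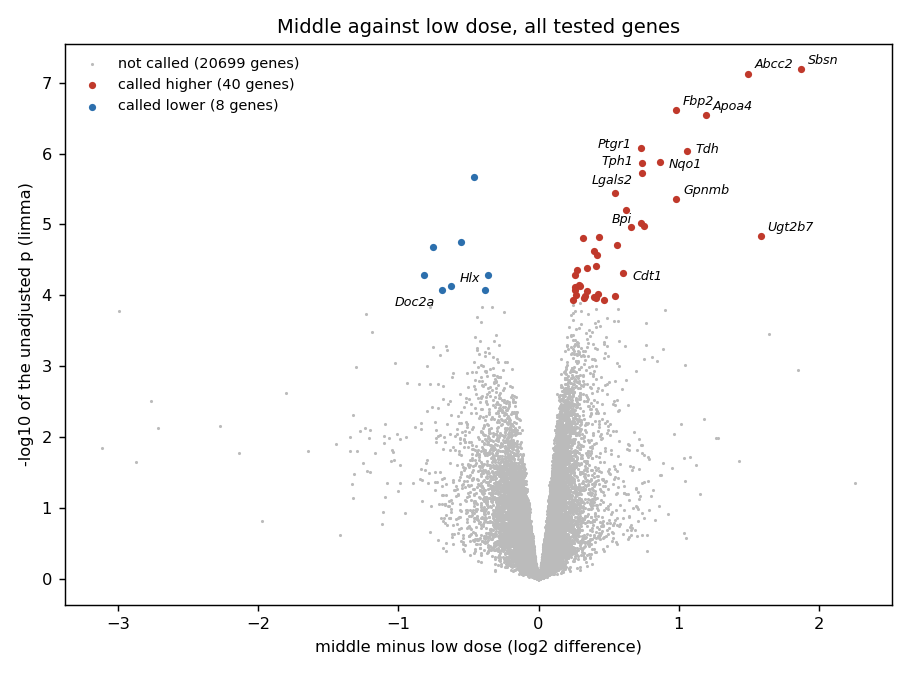
Each point is 1 of 20747 tested genes; the horizontal axis is the middle minus low difference (log2) and the vertical axis is -log10 of the unadjusted p from limma. The 40 genes called higher (red) outnumber the 8 called lower (blue), and the large negative differences at the left are not called.

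**Figure D2:**
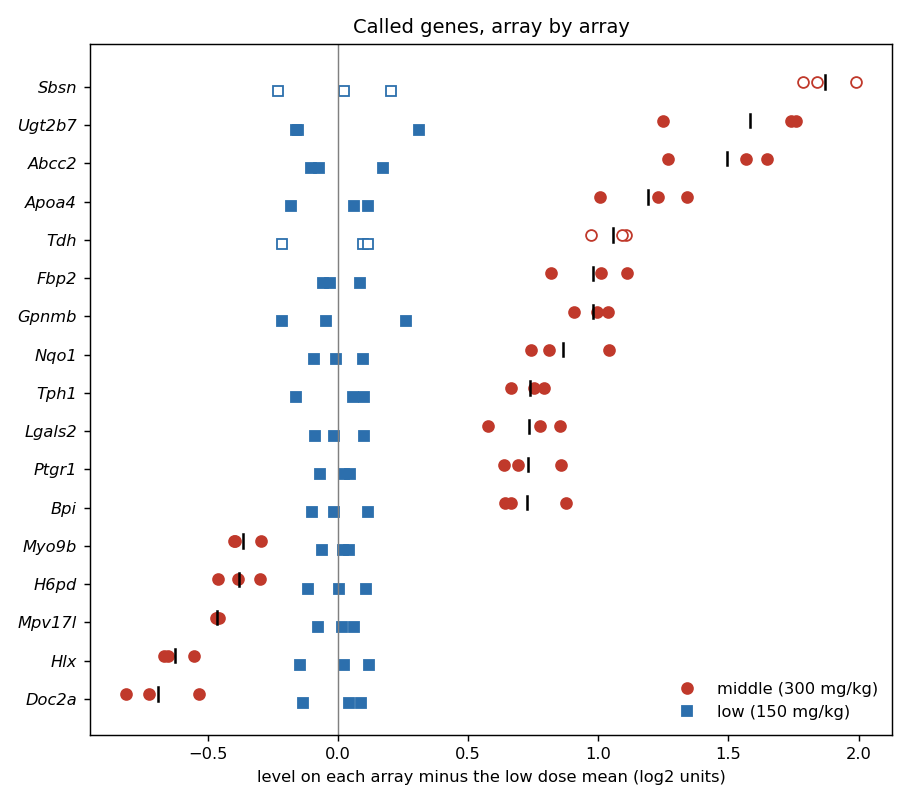
Each row is 1 of the 17 genes with the largest called differences; the horizontal axis gives the level on each array minus the mean of the low group (log2 units). Circles are the 3 middle animals, squares the 3 low animals and black bars the middle mean, and open symbols mark genes not well above background in either group. In no row do the groups overlap, because separated groups were a condition for a gene to be shown.

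Transport and conjugation of foreign compounds gave the largest changes measured above background. Abcc2, the apical pump MRP2 that exports glutathione and glucuronide conjugates into the tubule lumen, had levels of 3.5, 3.59 and 3.20 in middle animals, against 1.83, 1.87 and 2.11 in low animals. Every middle animal was more than 1 log2 unit above every low animal. The difference was 1.49 ± 0.11 (limma SE, n = 3 each), a 2.82-fold higher level (adjusted p = 0.000778, limma). It was 1.64 between the pair on slide 2 and 1.48 between the pair on slide 3. Ugt2b7, an enzyme that couples glucuronic acid to drugs and steroids, had levels of 3.52, 3.5 and 3.01 in middle animals, against 1.61, 1.60 and 2.07 in low animals. The groups were again well apart, by 1.58 ± 0.21 or 3.00-fold (adjusted p = 0.0168, limma). Genes of the Ugt2b family are close in sequence, so this probe may read related members.

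Abcc2 was the only called gene among 44 measured proximal tubule transporters, whose median difference was -0.03, with 17 positive and 27 negative. The uptake carriers of organic anions, Slc22a6 (OAT1) and Slc22a8 (OAT3), differed by -0.15 ± 0.10 and -0.25 ± 0.10, with adjusted p of 0.484 and 0.25. Slc22a2, the organic cation carrier, differed by -0.17 ± 0.08 (adjusted p = 0.35). For Slc34a1, the phosphate carrier of the brush border, the difference was -0.10 ± 0.05 (adjusted p = 0.34), and a second probe of this gene gave 0.25, also not called. Ugt2b7 was likewise the only called member of 10 measured glucuronidation genes, which had a median of 0.10. Its relatives Ugt2b35 and Ugt2b15 each differed by 0.30, with overlapping groups, and were not called. With the slide as a block both were called higher beside Ugt2b7, by 0.49 for Ugt2b35 (adjusted p = 0.0255) and 0.57 for Ugt2b15 (adjusted p = 0.0398). Of 21 cytochrome P450 genes none was called, at a median of 0.01 and with 1 at an unadjusted p under 0.05. The male-typical Cyp2c11 differed by -0.55 ± 0.25 (adjusted p = 0.315).

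Among NRF2 targets and glutathione genes, the quinone reductase Nqo1 rose. Nqo1, widely used as an NRF2 readout, had levels of -0.89, -1.12 and -1.19 in middle animals, against -2.02, -1.94 and -1.83 in low animals. All middle values exceeded all low values, by 0.87 ± 0.09 on average (1.82-fold, adjusted p = 0.00355, limma). H6pd, a hexose phosphate dehydrogenase of the endoplasmic reticulum that is not counted among these genes, was called in the other direction. Its levels were -2.59, -2.66 and -2.50 in middle animals, against -2.20, -2.31 and -2.10 in low animals, a difference of -0.38 ± 0.06 (adjusted p = 0.0458). The H6pd call was lost in most other settings, while its sign was kept in all of them.

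Of 27 measured NRF2 and glutathione genes, 2 were called, both higher, Nqo1 among them; with the slide as a block 1, Nqo1, was called. The median of this list was 0.16, with 20 members positive. In 14 the 3 middle animals lay above the 3 low animals, where 12.4% of all genes did. Srxn1, which restores oxidised peroxiredoxins, differed by 0.77 ± 0.15 (adjusted p = 0.092) with groups that did not overlap. The conjugating enzyme Gstm1 differed by 0.36 ± 0.15 (adjusted p = 0.295), on the same side in all animals. Gclc, the catalytic subunit of the enzyme that limits glutathione synthesis, differed by -0.09 ± 0.09 (adjusted p = 0.637). Hmox1, the heme-degrading stress enzyme, differed by 0.05 ± 0.11 (adjusted p = 0.859), with levels of 0.40, 0.02 and 0.09 in middle animals and 0.02, 0.21 and 0.12 in low animals. Those groups overlapped fully, whereas the high dose mean was 3.52.

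Ptgr1, a reductase of lipid aldehydes and eicosanoids, had levels of 4.0, 4.17 and 3.95 in middle animals, against 3.35, 3.24 and 3.33 in low animals. The difference of 0.73 ± 0.07 (1.66-fold, adjusted p = 0.00318, limma) was several times the spread within either group. Pir, an iron-binding nuclear protein, was higher by 0.54 ± 0.09 (adjusted p = 0.0491). Pir and other called genes beyond the 12 largest differences in each direction and up to 2 per list and direction are singled out after their values were seen. NRF2 acts through the antioxidant response element (ARE), here searched as TGACNNNGC on both strands from 250 bases before to 50 after the start of RefSeq genes in build GRCr8. A match was present in 9 of 27 promoters of the measured NRF2 and glutathione genes (33.3%; 24 genes had an entry), in 5 of 29 promoters of the called named genes (17.2%), in 14.4% of the promoters of all tested genes and in 12.1% of all 33469 promoters. The pattern can overlap the shorter site of AP-1 factors, and a match is a spelling, not a measured binding site. The promoters of the pump Abcc2 (chr1:252613625-252613924, plus strand) and of Pir (chrX:33851000-33851299, minus strand) are shown because both genes were called and hold the letters, which are in capitals.
Abcc2: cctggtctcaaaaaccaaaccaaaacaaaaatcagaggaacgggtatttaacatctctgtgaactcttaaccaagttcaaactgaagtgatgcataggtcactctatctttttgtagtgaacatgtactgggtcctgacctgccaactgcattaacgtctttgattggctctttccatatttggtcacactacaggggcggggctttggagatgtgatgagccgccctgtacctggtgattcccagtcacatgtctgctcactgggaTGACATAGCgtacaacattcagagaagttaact
Pir: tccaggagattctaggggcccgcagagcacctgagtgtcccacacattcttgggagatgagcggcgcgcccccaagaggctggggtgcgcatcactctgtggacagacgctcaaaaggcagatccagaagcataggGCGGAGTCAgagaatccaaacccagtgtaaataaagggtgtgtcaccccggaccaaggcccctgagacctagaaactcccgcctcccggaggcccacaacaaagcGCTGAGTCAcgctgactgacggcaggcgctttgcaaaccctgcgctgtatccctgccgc
The Abcc2 promoter holds 1 match and the Pir promoter holds 2, both read from the opposite strand.

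Both apolipoprotein genes among the called genes rose. Apoa4, an apolipoprotein of intestinal and plasma lipoproteins, had levels of -0.67, -0.56 and -0.89 in middle animals, against -1.83, -2.08 and -1.78 in low animals. The groups were separated by 1.19 ± 0.10 (2.28-fold, adjusted p = 0.00151, limma), 1.41 between the animals of slide 2 and 1.23 between those of slide 3. Apoc2, the cofactor of lipoprotein lipase, was higher by 0.54 ± 0.06 (1.46-fold, adjusted p = 0.00678). Among 34 measured genes of fatty acid oxidation and PPARA targets, Apoa4 alone was called, and the median was 0.02. Angptl4, a lipase inhibitor, differed by -0.02 ± 0.17 (adjusted p = 0.973).

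None of 24 cholesterol synthesis genes was called, at a median of 0.13 with 20 members positive and 7 at an unadjusted p under 0.05.

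Of the heme genes, that of the first step of synthesis rose. Alas1, the rate-limiting enzyme outside red cells, had levels of 6.18, 6.22 and 6.14 in middle animals, against 5.67, 5.85 and 5.81 in low animals. The difference was 0.41 ± 0.07 (1.33-fold, adjusted p = 0.0498, limma), just inside the threshold, and the call was lost in most other settings, the slide block among them. Alas1 was the only called member of 19 measured heme, iron and metal genes, at a median of 0.10. Tfrc, the transferrin receptor, differed by 0.43 ± 0.12 (adjusted p = 0.154), and its 2 other probes gave 0.38 and 0.09. Blvrb, biliverdin reductase B, differed by 0.36 ± 0.07 (adjusted p = 0.085).

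Of the called enzymes of sugar and amino acid metabolism, 4 that were higher are described here, with 1 mitochondrial carrier, also higher. The direction was not shared by all such enzymes, since H6pd, given above, was called lower (-0.38). Tph1 and Tdh, enzymes of amino acid metabolism called higher, are described below. Fbp2, the muscle-type fructose bisphosphatase, had levels of 0.76, 0.86 and 0.57 in middle animals, against -0.16, -0.31 and -0.28 in low animals. The difference of 0.98 ± 0.08 (1.97-fold, adjusted p = 0.00151, limma) far exceeded the spread in each group. Aldoa (aldolase A), Galk1 (galactokinase), Arg1 (arginase) and Slc25a12 (the mitochondrial aspartate-glutamate carrier) were called higher by smaller amounts. Their differences were 0.25 for Aldoa, 0.29 for Galk1, 0.40 for Arg1 and 0.26 for Slc25a12. A second, dimmer probe of Slc25a12 gave 0.15 and was not called. None of 38 measured genes for glucose, vitamin D and amino acid metabolism of the proximal tubule was called, at a median of -0.03, with 2 higher and 5 lower at an unadjusted p under 0.05. G6pc1, the glucose-releasing phosphatase, differed by 0.13 ± 0.09 (adjusted p = 0.488). Cyp24a1, which degrades vitamin D, had levels of -1.54, -2.0 and -3.48 in middle animals, against -0.92, -1.09 and -0.98 in low animals. All middle values were lower, but middle 3 lay far below the others and the difference of -1.35 ± 0.46 was not called (adjusted p = 0.21).

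DNA replication genes had small and mostly positive differences, and 2 of them were called higher. Cdt1, which with Cdc6 loads the replicative helicase onto DNA, had levels of -2.85, -2.74 and -2.70 in middle animals, against -3.48, -3.40 and -3.23 in low animals. Its difference was 0.61 ± 0.09 (1.52-fold, adjusted p = 0.0349, limma). Mcm2, a helicase subunit, had levels of 0.27, 0.27 and 0.21 in middle animals, against -0.08, -0.07 and 0.01 in low animals. A second Mcm2 probe gave a difference of 0.27 and was not called. In both genes the groups were fully apart, by 0.30 ± 0.05 for Mcm2 (1.23-fold, adjusted p = 0.0448). Both calls were lost in most other settings, that of Cdt1 in 11 and that of Mcm2 in 18 of 21, and with the slide as a block neither gene was called (adjusted p = 0.0924 for Cdt1 and 0.088 for Mcm2). These were the 2 called members of 33 measured replication and S phase genes; 30 of the 33 had a positive difference, and the median was 0.24. In 20 of the 33 the 3 middle animals lay above the 3 low animals, and in none did they lie below, where 12.4% and 6.18% of all genes did.

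Other members did not pass the test. E2f1, a transcription factor of the G1 to S transition, differed by 0.47 ± 0.09 (adjusted p = 0.092). The S phase cyclin Ccne1 differed by 0.46 ± 0.13 (adjusted p = 0.163). Cdc6 and the helicase subunit Mcm5 differed by 0.27 ± 0.07 and 0.34 ± 0.12, with adjusted p of 0.144 and 0.215. Of 31 measured mitosis genes none was called, 1 was higher and 2 lower at an unadjusted p under 0.05, and the median was -0.01. Mki67, a marker of cycling cells, differed by -0.14 ± 0.13 (adjusted p = 0.618). Of 18 measured p53 targets none was called (median -0.01; 3 higher and 2 lower at an unadjusted p under 0.05); Cdkn1a, a cell cycle inhibitor, differed by -0.28 ± 0.21 and Mdm2, the p53 ubiquitin ligase, by -0.05 ± 0.08. With the slide as a block 2 members of this list were called lower: Btg2, an antiproliferative gene also counted among the immediate early genes below (-1.10 without the block, -1.72 with it, adjusted p = 0.00702), and the kinase Plk3 (-0.84 without the block, -1.24 with it, adjusted p = 0.0413).

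Factors of the E2F family bind TTTCCCGC and similar sites in replication genes. Searched on both strands as TTTCCCGC, TTTCGCGC, TTTGCCGC or TTTGGCGC, these letters were in 12 of 27 promoters of the measured replication genes (44.4%; 25 genes had an entry), in 3.82% of the promoters of all tested genes and in 2.14% of all promoters. The promoters of the called genes Cdt1 (chr19:67528999-67529298, plus strand) and Mcm2 (chr4:122918045-122918344, minus strand), from RefSeq in build GRCr8, are printed with the matches in capitals.
Cdt1: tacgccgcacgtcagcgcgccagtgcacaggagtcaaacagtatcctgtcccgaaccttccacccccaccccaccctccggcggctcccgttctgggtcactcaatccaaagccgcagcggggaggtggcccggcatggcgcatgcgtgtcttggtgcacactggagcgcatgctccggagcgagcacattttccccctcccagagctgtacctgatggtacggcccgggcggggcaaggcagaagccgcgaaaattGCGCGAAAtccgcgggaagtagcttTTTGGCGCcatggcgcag
Mcm2: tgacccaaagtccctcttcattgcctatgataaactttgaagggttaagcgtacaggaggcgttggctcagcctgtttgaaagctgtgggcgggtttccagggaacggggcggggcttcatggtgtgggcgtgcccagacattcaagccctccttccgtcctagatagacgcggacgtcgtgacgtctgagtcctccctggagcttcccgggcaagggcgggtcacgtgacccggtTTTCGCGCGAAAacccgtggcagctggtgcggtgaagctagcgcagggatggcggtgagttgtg
Each holds 2 matches, 1 per strand, and those of Mcm2 overlap.

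No gene of protein synthesis or turnover was called, though most differences were positive. Of 42 measured ribosomal protein genes, 41 had a positive difference, with a median of 0.15, and 25 reached an unadjusted p under 0.05. Of 32 proteasome genes, 30 were positive, with a median of 0.08, and 6 reached that mark. In 22 ribosomal and 14 proteasome genes the middle animals all lay above the low animals, where 12.4% of all genes did. Over all genes, 16% reached an unadjusted p under 0.05 in either direction. Of 41 oxidative phosphorylation and citrate cycle genes none was called, at a median of 0.02 (3 higher at an unadjusted p under 0.05).

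**Figure D3:**
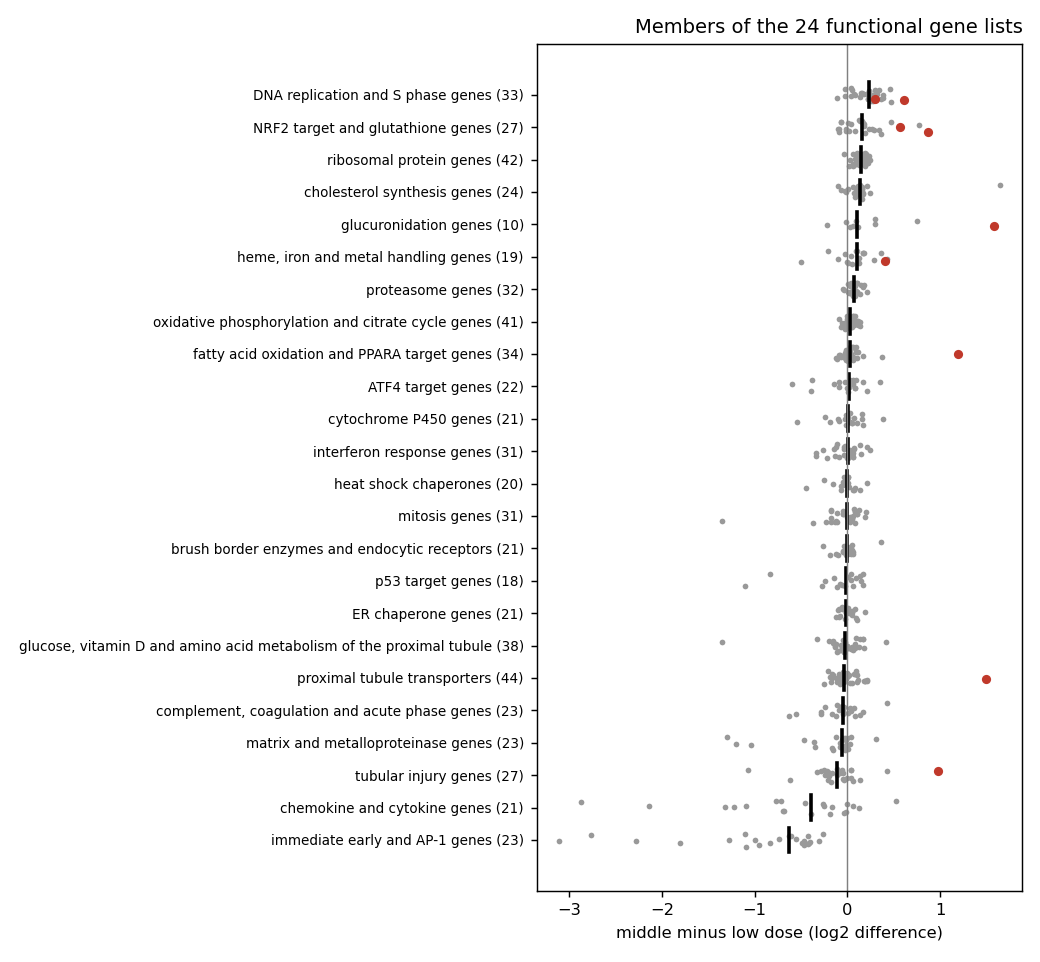
Each point is 1 measured member of a functional gene list, with the number of members in parentheses; the horizontal axis is the middle minus low difference (log2), black bars are medians and red points are called genes. Medians run from 0.24 for replication genes to -0.63 for immediate early genes, a list with no called member.

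Of 27 measured tubular injury genes, 1 was called, higher: Gpnmb, a lysosomal membrane glycoprotein of macrophages and injured tubule cells. Its levels were -0.35, -0.39 and -0.48 in middle animals, against -1.60, -1.43 and -1.12 in low animals. The groups were apart by 0.98 ± 0.11 (1.97-fold, adjusted p = 0.00765, limma). The list median was -0.11, with 20 members negative. Havcr1 had levels of -3.92, -3.91 and -3.80 in middle animals, against -3.87, -4.05 and -1.86 in low animals. Low 3 alone was high, and the difference of -0.62 ± 0.51 was not called (adjusted p = 0.578); without low 3 it was 0.08.

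Lcn2, the lipocalin NGAL, was not well above background on any middle array and on only 1 low array. Spp1 (osteopontin), Clu (clusterin) and Timp1 (an inhibitor of metalloproteinases) differed by -0.25 ± 0.21, -0.11 ± 0.12 and -0.08 ± 0.08, with adjusted p between 0.586 and 0.69. In each of these 3 genes low 3 was the highest of the low animals. Umod, the main secreted protein of the thick ascending limb, differed by 0.07 ± 0.05 (adjusted p = 0.546). None of 20 heat shock chaperones was called, at a median of -0.01 (1 higher and 2 lower at an unadjusted p under 0.05). Hspa1a, the inducible HSP70, differed by -0.45 ± 0.28 (adjusted p = 0.455), with low 2 the highest of the 6 animals. Hsph1, its cochaperone, had an adjusted p of 0.991, and the second HSP70 gene Hspa1b, a near copy of Hspa1a, was not well above background on any middle or low array.

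None of 21 endoplasmic reticulum chaperone genes and none of 22 ATF4 targets was called, at medians of -0.01 and 0.02; at an unadjusted p under 0.05, 1 and 1 were higher and 0 and 1 lower. Chac1, a glutathione-degrading ATF4 target, was above background on 1 of the 6 arrays.

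The remaining called genes belong to no common list. Tph1, the first enzyme of serotonin synthesis outside the brain, had levels of -2.75, -2.79 and -2.87 in middle animals, against -3.70, -3.44 and -3.48 in low animals (0.74 ± 0.07, adjusted p = 0.00355, limma). Bpi, which binds bacterial lipopolysaccharide, had levels of -2.58, -2.37 and -2.61 in middle animals, against -3.26, -3.35 and -3.14 in low animals (0.73 ± 0.09, adjusted p = 0.0142). Lgals2, a galectin, was higher by 0.74 ± 0.08 (adjusted p = 0.00433), while a second, dimmer probe gave 0.18 and was not called. Thus the middle animals lay above the low animals throughout for these 3 genes.

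Sbsn (suprabasin, a protein of differentiating epidermis) and Tdh (threonine dehydrogenase) passed the test, but neither was well above background on any middle or low array. They were tested because all 3 high dose arrays exceeded background. Sbsn had levels of -5.41, -5.21 and -5.36 in middle animals, against -7.18, -6.99 and -7.43 in low animals, and Tdh had -4.90, -4.91 and -5.03 in middle animals, against -6.22, -5.91 and -5.89 in low animals. With normexp background correction the differences were 0.28 for Sbsn and 0.19 for Tdh and neither passed the test, so no fold is given for them.

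Outside the naming rule, and chosen after their values were seen, 7 further named genes were called higher by 0.27 to 0.66: Dlgap1, a synaptic scaffold protein (0.66), Atp6v1g2, a proton pump subunit (0.47), Anxa7, an annexin (0.42 on both of its probes), Dnph1, a nucleotide hydrolase (0.41), Pafah1b3, a subunit of platelet-activating factor acetylhydrolase (0.34), Lrrc51 (0.33) and Tamm41, a mitochondrial lipid synthesis enzyme (0.27). A second probe of Atp6v1g2 gave 0.23 and was not called, while a second probe of Pafah1b3 gave 0.37 and was called. A further 14 called sequences, 11 higher and 3 lower, have no reference symbol.

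Of the 8 genes called lower, 5 have a name. Mpv17l, a relative of the mitochondrial inner membrane protein Mpv17 and abundant in kidney, had levels of 4.55, 4.54 and 4.56 in middle animals, against 5.07, 5.03 and 4.93 in low animals. The middle animals were nearly identical, and the difference was -0.46 ± 0.05 (1.38-fold lower, adjusted p = 0.00447, limma). Doc2a, a calcium sensor of vesicle release, differed by -0.69 ± 0.11 (adjusted p = 0.0458). Hlx, a homeobox transcription factor, differed by -0.62 ± 0.10 (adjusted p = 0.0448). Myo9b, an unconventional myosin, differed by -0.36 ± 0.05 (adjusted p = 0.0349). In these 3 genes, as in H6pd, all middle values were below all low values, and the calls were lost in most other settings: 17 of 21 for Doc2a and for Hlx and 11 of 21 for Myo9b.

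Across the 4 doses these genes took different courses, given here as group means without a test. Abcc2 had means of 1.32, 1.94, 3.43 and 4.32 at 0, 150, 300 and 600 mg/kg, and Nqo1 of -2.52, -1.93, -1.06 and -0.32. Both stepped up at each dose, with the largest step of Abcc2 between 150 and 300 mg/kg. Ugt2b7 had means of -1.44, 1.76, 3.34 and 3.82, so its largest step came before the low dose. Cdt1, at -3.32, -3.37, -2.76 and -1.24, and Mcm2, at -0.04, -0.05, 0.25 and 1.12, had low dose means at the control level. Alas1 had means of 5.11, 5.77, 6.18 and 6.23, close together at the middle and high doses. Mpv17l ran downwards, at 5.11, 5.01, 4.55 and 4.14.

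**Figure D4:**
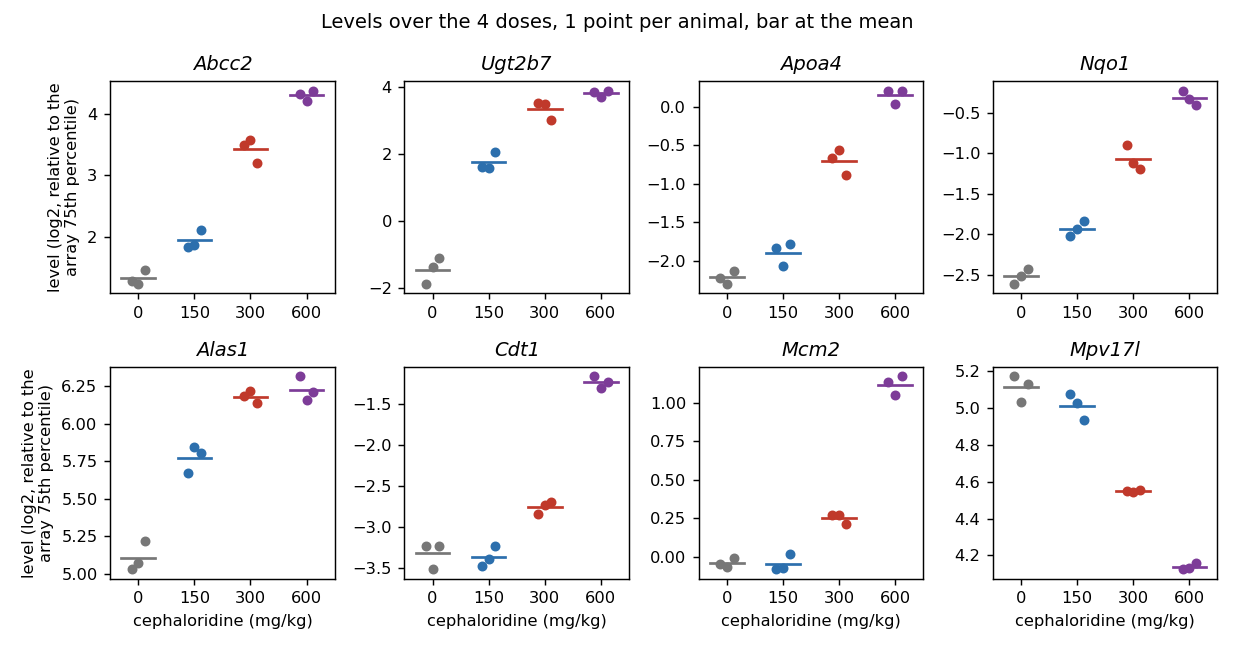
Levels of 8 called genes (log2, relative to the 75th percentile of the array) at 0, 150, 300 and 600 mg/kg, with 1 point per animal and a bar at the group mean; each panel has its own vertical axis. The 3 middle animals lie clear of the 3 low animals in every panel, but the genes were chosen because they were called on these same values. The low dose mean of Cdt1 (-3.37) and Mcm2 (-0.05) lies at the control mean.

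Immediate early genes, which encode transcription factors and signal brakes induced within minutes of a stimulus, had large negative differences that rested on 2 low animals. Fos, a subunit of the AP-1 factor, had levels of -2.87, -1.89 and -2.97 in middle animals, against -2.68, 2.12 and 2.16 in low animals. Low 2 and low 3 were far above the rest, while low 1 lay among the middle animals, and the control mean was -2.63. The difference of -3.11 ± 1.06 was not called (adjusted p = 0.204, limma). Egr2, a zinc finger factor, had levels of -4.45, -4.28 and -4.24 in middle animals, against -3.59, -0.58 and -0.49 in low animals, a difference of -2.77 ± 0.72 (adjusted p = 0.142). Nr4a1, an orphan nuclear receptor, had 2.24, 2.42 and 2.20 in middle animals, against 2.76, 4.79 and 4.71 in low animals (-1.80 ± 0.45, adjusted p = 0.133). Atf3, a stress-induced factor, differed by -1.28 ± 0.39 (adjusted p = 0.174), again with low 1 among the middle animals, and was called lower without low 1 (adjusted p = 0.00762).

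Of 23 measured immediate early and AP-1 genes none was called, all 23 had a negative difference, 18 reached an unadjusted p under 0.05, and the median was -0.63. In 8 of the 23 the middle animals all lay below the low animals, where 6.18% of all genes did. Without low 1, 15 of the 23 were called lower, at a median of -0.89. With low 1 as the only low animal, a setting chosen after seeing the data, none was called and the median was -0.10. With the slide as a block, which leaves low 1 out of the comparison, 12 were called lower, at a median of -0.94. Low 1 shared its slide with the controls, so animal and slide cannot be told apart for it. A CArG box, the site of serum response factor, was in 5 of 17 promoters of these genes (29.4%; 17 genes had an entry), in 1.34% of the promoters of all tested genes and in 1.64% of all promoters, searched on both strands, whose letters read alike. The RefSeq promoter of Egr2 in build GRCr8 (chr20:21054392-21054691, minus strand), which holds 1 match in capitals, is shown as an example.
Egr2: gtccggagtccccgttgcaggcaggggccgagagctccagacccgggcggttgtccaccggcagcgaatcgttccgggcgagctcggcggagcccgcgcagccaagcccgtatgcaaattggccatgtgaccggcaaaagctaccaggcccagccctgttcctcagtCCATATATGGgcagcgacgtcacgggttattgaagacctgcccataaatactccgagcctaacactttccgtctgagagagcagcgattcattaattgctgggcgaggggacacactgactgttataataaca

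**Figure D5:**
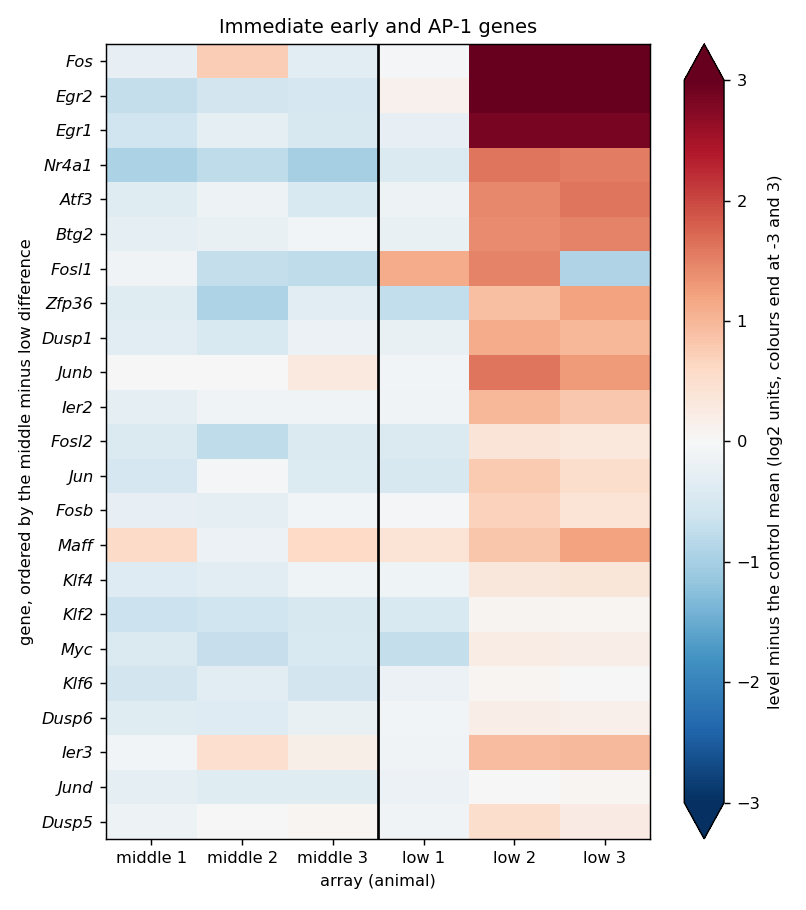
Rows are the 23 measured immediate early and AP-1 genes, columns the 3 middle and the 3 low animals, and colour is the level minus the control mean (log2 units, with colours ending at -3 and 3). Low 2 and low 3 are red in most rows, whereas low 1 resembles the middle animals.

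Of 21 measured chemokine and cytokine genes none was called; 18 had a negative difference and 3 a positive one, 6 were lower and 0 higher at an unadjusted p under 0.05, and the median was -0.40. Cxcl2, a neutrophil attractant and the lowest of the list, had levels of -5.43, -4.49 and -5.64 in middle animals, against -5.16, -1.43 and -0.35 in low animals (-2.87 ± 1.06, adjusted p = 0.239, limma). It was well above background on 1 middle array and 2 low arrays. Cxcl1, a related attractant, had levels of -2.49, -1.89 and -3.06 in middle animals, against -1.72, 1.29 and -0.60 in low animals. Ccl3, a macrophage chemokine, had -0.62, -0.19 and -1.05 in middle animals, against -0.78, 1.61 and 1.26 in low animals. Low 2 and low 3 were the highest 2 animals for these 3 genes. Cxcl1 differed by -2.13 ± 0.74 (adjusted p = 0.215) and Ccl3 by -1.32 ± 0.53 (adjusted p = 0.269). Without low 1, Ccl3 was called lower (adjusted p = 0.0312). The monocyte attractants Ccl2 and Ccl7 differed by -0.72 ± 0.62 and -0.77 ± 0.58 with overlapping groups. For Ccl2 the highest 2 animals were low 2 and middle 2. Ccl12 differed by 0.52 ± 0.46, in the other direction. Its levels were very dim, with means of -5.975 (SD 0.91) in middle animals and -6.497 (SD 0.46) in low animals. Cxcl2, Ccl12 and, among the p53 targets, Btg2 and Plk3 are named after their values were seen. Fos, Egr2, Nr4a1, E2f1, Blvrb, Ugt2b15, Ugt2b35 and, below, Hbb, Hbb-b1, Slc4a1, Kdr, Atp6v1g3 and S100a9 also lie outside the naming rule. Their choice was likewise not fixed before their values were seen. Of 31 interferon response genes none was called (median 0.01; 1 higher at an unadjusted p under 0.05).

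No marker in the 16 lists of cell types was called. In bulk tissue, fewer cells of a type and less RNA per cell cannot be told apart. All 12 endothelial markers had a negative difference (median -0.17, none called, 3 at an unadjusted p under 0.05), and their summed level, in units of the 75th percentile, was 59.3 to 60.1 in middle animals and 62.4 to 65.5 in low animals. All 8 intercalated cell markers were positive (median 0.16, none called, 5 at an unadjusted p under 0.05), with sums of 116 to 124 in middle animals and 102 to 114 in low animals. Red cell transcripts summed to 49.5 to 73.0 in middle animals and 80.6 to 86.2 in low animals. Of the 6, 5 were negative, none was called, and Hbb, a beta globin, differed by -1.02 ± 0.22 (adjusted p = 0.104). The positive 1, Slc4a1 (0.11), is the same probe that is counted among the intercalated cell markers. The sums are linear, so the brightest marker weighs most in each. For endothelial cells it was Kdr, at means of 5.48 in middle and 5.56 in low animals. For intercalated and red cells it was Atp6v1g3 (5.9 and 5.78) and Hbb-b1 (5.675 and 6.152). Whether sums of other genes would separate likewise was not tested.

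Of 14 measured macrophage markers none was called, and the sums overlapped, at 55.7 to 65.0 in middle animals and 54.0 to 59.4 in low animals. Adgre1, which encodes F4/80, differed by 0.11 ± 0.07 (adjusted p = 0.507). Only 2 of 9 neutrophil markers on the array were measurable, and S100a8, Mpo and Csf3r were among those not above background. The 2 measured markers both had a negative difference, at a median of -0.75, and neither was called. S100a9 differed by -1.32 ± 0.37 (adjusted p = 0.155, limma), at a mean level of only -7.08 in middle animals. The 14 proximal tubule markers had a median of -0.05, with sums of 1670 to 1778 in middle animals and 1713 to 1852 in low animals. The part of these shifts in the called differences was not tested.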

How the data were processed

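Total RNA from the kidney cortex of 12 animals was labelled with Cy3 and read on Agilent rat arrays, 1 array per animal. Per the file headers, the authors extracted signals with Agilent Feature Extraction 9.1.3.1; the deposited processed signal is a background-corrected linear intensity, not scaled between arrays, and the deposited flags are other values of 0 or 1. The authors' value table is a linear ratio between the processed signal, floored at 5, and 1 constant per array: all 40749 probes spotted once lay within 0.1% of this, with column medians of 1.003 to 1.005. The genome build behind the probes is not given in the sources used here.

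Signals of the 43379 non-control spots (41012 probes), without outlier spots, were averaged per probe, taken to log2, and the 75th percentile of each array was subtracted. Probes were named through RefSeq by accession (10735), symbol (5571), older symbol (3729) or gene ID (1217), and 19760 kept the array's name. The brightest probe stood for each of 35500 genes. A gene was tested where some dose had all 3 arrays well above background (20747 genes). The fit used limma (version 3.58.1, R 4.3.3) and gave each dose its own mean over all 12 arrays; p-values are two-sided and Benjamini-Hochberg adjusted, errors are limma standard errors, and the number of arrays limits the precision. The labels give 1 sample per animal and no handling batch. The procedure was tested on simulated data.

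Named are the 12 largest called differences in each direction with separated groups (all, where fewer), up to 2 called genes per functional list and direction, and 39 core genes; a few of these are not reported here. Some genes outside this rule are named as well. Members and lists were chosen with earlier results of these data known. Alternatives were 3 scalings or background corrections, the authors' table, 4 choices of probes or filter, 6 other fits and leaving out each animal.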

Additional observations from a re-analysis of the deposited data

How the results depend on the processing

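All 48 called genes that were present kept their sign in every setting, but the number called moved. In place of 40 higher, 8 lower and 5 at 2-fold (Sbsn and Tdh, not above background, included), the counts were 4 lower with quantile normalization, 24 higher and 4 lower with median scaling, 25 higher and 4 lower with the authors' table, 13 higher and 1 lower without a filter on dim probes, and 5 lower with every probe on its own. At 2-fold, normexp background correction gave 2 genes and genes above background on all 12 arrays 3. The slide block gave 40 lower and 25 at 2-fold, the scan day block 24 higher, trended and robust moderation 93 higher, 14 lower and 8 at 2-fold, and array weights 10 higher and 1 lower. The fit of the 6 arrays alone gave 0 in each direction and 0 at 2-fold. The replicate block gave 16 higher and 2 lower and kept 15 of the 48. Same-numbered animals deviated with correlations of 0.08, -0.22 and -0.05 over 20717 genes, and differently numbered animals with -0.24 to 0.28. Deviations from a mean of 3 animals depend on each other, so these correlations cannot show whether the numbers pair animals. Leaving out 1 animal gave 11 to 69 higher, 1 to 56 lower and 4 to 29 at 2-fold, with 11 higher and 1 lower without middle 2, 11 higher and 2 lower without low 2, 19 higher and 2 lower without low 3, 69 higher and 21 lower without middle 1, and 56 lower without low 1. Low 1 as the only low animal, added after seeing the data and with its spread assumed like that of the other groups, gave 6 higher and 10 at 2-fold. The cause of these moves was not tested.

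Over 21 alternatives each, Abcc2, Apoa4 and Tph1 lost their call in 1, Ugt2b7 in 7, Cdt1 and Myo9b in 11, H6pd in 16, Doc2a and Hlx in 17, and Mcm2 and Alas1 in 18. Reversed signs were confined to genes not called. Hsph1 turned to 0.027 with median scaling, 0.0025 with normexp, 0.029 with the authors' table and 0.10 with array weights. Angptl4 turned to 0.015 with quantile normalization, 0.015 with median scaling, 0.017 with the authors' table and 0.13 with array weights. Slc34a1 turned to 0.075 with the mean of all probes. With the slide block, Chac1 turned to -0.060, Mdm2 to 0.064 and Mki67 to 0.023. With low 1 as the only low animal, values were 0.23 for Spp1, 0.070 for Clu, 0.088 for Timp1, 0.048 for Gclc, 0.087 for Hspa1a, -0.0043 for Hspa1b, 0.061 for Hsph1, 0.20 for Cdkn1a, 0.023 for Ccl2 and 0.16 for Ccl3. Leaving out 1 animal at a time, the difference ran from -1.01 to 0.083 for Havcr1, -0.20 to 0.064 for Clu, -0.062 to 0.13 for Hmox1, -0.094 to 0.12 for Hspa1b, -0.099 to 0.14 for Hsph1, -0.036 to 0.41 for Chac1, -0.14 to 0.045 for Mdm2, -0.25 to 0.032 for Mki67 and -0.20 to 0.16 for Angptl4. Havcr1 was positive only without low 3.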
